A study of Mus musculus with 2 samples.

Results

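Of the 2763 *Meg3* ChIRP-seq peaks in the deposited lists, 275 were intergenic, lay more than 1 kb from the transcription start site (TSS) that the lists assign to them, were not centred in an L1 or LTR retrotransposon and were not on chromosome 15. The list of the β-actin knockout (KO) held 158 of them among 1554 peaks, and the wild-type (WT) list held 117 among 1209. Peaks centred in SINEs, satellites and simple repeats were kept. These peaks are called members here. No intergenic peak outside L1, LTR and chromosome 15 was dropped by the distance limit, since the authors' annotation labels peaks closer to a TSS as promoter peaks. The member nearest to the limit was a WT peak 1103 bp upstream of *Tpm4*, and the nearest KO member lay 1451 bp upstream of *Rcor2*.

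Mouse embryonic fibroblasts (MEFs) of both genotypes, WT and β-actin KO, were fixed with 1% glutaraldehyde for 10 min, and *Meg3* was captured with biotinylated DNA probes in an odd and an even pool. The libraries of each genotype were merged before peaks were called, so there was 1 list per genotype and no replicate list. Every peak carried the score 1, so no peak could be ranked by strength, and the depth was unknown. The lists hold DNA regions and no expression values, so the labelled cell type could not be set against its markers, nor the loss of *Actb* against its level.

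*Meg3* is a long non-coding RNA made from the maternal copy of the imprinted *Dlk1*-*Dio3* region and is known to bind Polycomb repressive complex PRC2. In ChIRP, short antisense probes pull down an RNA together with the chromatin that is fixed to it, and the recovered DNA is sequenced. An intergenic peak therefore marks DNA recovered with the RNA away from annotated genes, where distal regulatory elements, gene deserts and unannotated transcripts are found.

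No KO member overlapped a WT member, but some lay side by side. The deposited lists may hold only peaks unique to a genotype, which would fix the absence of overlap in advance. The sequences of the 4 closest KO-WT pairs whose 31-base and 100-base words mostly occur once in the genome are shown, because both lists hold a peak there. Parts of a peak can still be repeated elsewhere, such as the run of alternating A and C that opens the *Cyp3a41b* WT peak. They are on the plus strand of GRCm38, each peak whole or its central 300 bases, and capitals mark the longest unbroken run of purines (A and G) or of pyrimidines (C and T).
Mir23a KO, chr8:84197560-84197836: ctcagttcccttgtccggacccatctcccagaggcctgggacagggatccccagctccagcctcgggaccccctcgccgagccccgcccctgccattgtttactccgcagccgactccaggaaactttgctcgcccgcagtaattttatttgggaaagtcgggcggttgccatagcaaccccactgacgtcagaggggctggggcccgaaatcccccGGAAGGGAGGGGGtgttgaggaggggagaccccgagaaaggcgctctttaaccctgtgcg
Mir23a WT, chr8:84197954-84198160: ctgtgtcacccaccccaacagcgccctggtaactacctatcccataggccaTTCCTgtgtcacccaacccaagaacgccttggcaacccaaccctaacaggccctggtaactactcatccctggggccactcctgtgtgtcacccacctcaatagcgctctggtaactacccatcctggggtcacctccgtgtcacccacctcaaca
Cyp3a41b KO, chr5:145631960-145632256: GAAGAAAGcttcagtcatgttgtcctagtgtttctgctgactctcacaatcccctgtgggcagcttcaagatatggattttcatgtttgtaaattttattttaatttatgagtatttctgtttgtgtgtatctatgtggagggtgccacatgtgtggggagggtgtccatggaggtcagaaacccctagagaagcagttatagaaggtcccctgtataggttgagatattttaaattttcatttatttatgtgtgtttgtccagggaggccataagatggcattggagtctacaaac
Cyp3a41b WT, chr5:145631517-145631772: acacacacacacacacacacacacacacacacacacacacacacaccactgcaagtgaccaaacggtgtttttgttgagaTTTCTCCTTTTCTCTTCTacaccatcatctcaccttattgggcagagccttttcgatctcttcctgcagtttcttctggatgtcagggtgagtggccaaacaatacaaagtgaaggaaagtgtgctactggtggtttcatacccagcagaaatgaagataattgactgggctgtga
Esp34 KO, chr17:38521855-38522154: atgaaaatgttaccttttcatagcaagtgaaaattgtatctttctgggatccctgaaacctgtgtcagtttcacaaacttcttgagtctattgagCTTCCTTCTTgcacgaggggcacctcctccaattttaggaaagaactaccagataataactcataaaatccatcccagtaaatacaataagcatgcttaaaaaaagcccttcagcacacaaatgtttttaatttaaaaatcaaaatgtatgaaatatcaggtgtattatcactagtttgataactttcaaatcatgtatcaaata
Esp34 WT, chr17:38521330-38521504: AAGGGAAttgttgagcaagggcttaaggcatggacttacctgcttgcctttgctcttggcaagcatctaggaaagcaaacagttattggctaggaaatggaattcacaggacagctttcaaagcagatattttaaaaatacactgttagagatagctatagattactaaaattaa
Mir6388 KO, chr12:115605048-115605347: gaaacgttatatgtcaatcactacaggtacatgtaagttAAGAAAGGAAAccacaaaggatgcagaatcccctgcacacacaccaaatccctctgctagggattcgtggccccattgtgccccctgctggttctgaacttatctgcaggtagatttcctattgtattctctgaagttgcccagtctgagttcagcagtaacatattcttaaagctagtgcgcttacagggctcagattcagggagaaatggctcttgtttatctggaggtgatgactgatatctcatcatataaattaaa
Mir6388 WT, chr12:115603942-115604206: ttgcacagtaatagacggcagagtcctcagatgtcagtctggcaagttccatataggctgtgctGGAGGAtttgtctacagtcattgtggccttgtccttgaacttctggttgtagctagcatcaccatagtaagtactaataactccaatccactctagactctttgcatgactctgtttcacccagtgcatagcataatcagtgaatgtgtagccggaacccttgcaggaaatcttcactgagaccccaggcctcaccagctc

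The members of the first pair were 117 bp apart and stood 10820 bp (KO) and 10461 bp (WT) upstream of *Mir23a*, which encodes a microRNA. The KO peak was centred in a CpG island and overlapped an exon of the non-coding gene *Gm26887*, 31 bp from its TSS. At *Cyp3a41b*, a cytochrome P450 gene, the gap was 187 bp, and the WT peak overlapped an exon of the pseudogene *Cyp3a63-ps*. At *Esp34*, which encodes a peptide secreted by exocrine glands, the gap was 313 bp and no GENCODE gene was overlapped. In the immunoglobulin heavy-chain (IgH) region the gap was 774 bp, and the WT peak overlapped an exon of the variable gene segment *Ighv1-67*. The runs in capitals were short in these 8 stretches, from 5 to 18 bases.

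Long purine or pyrimidine runs are shown next for the member of each list with the longest one, since purine-rich tracts are the kind of DNA with which *Meg3* has been described to form triple helices. The KO example lay near *Uqcrb* and the WT example near *Urml*, both on chromosome 13.
Uqcrb KO, chr13:66726128-66726427: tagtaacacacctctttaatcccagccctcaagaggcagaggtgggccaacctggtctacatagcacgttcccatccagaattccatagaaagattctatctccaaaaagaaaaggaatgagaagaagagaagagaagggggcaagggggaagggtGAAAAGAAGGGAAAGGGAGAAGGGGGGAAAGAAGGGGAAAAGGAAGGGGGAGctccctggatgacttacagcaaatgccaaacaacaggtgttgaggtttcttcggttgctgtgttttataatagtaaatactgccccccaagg
Urml WT, chr13:68166154-68166364: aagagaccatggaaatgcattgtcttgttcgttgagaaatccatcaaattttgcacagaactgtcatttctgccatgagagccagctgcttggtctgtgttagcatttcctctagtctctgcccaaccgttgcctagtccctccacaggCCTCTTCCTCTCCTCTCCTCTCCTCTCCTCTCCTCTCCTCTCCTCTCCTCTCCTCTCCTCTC

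The KO member held 52 purines in a row and the WT member 62 pyrimidines in a row. Most members held no such tract, and the median longest run was 11 bases in the KO list and 10 in the WT list. In windows of 225 bases centred on the members, a run of at least 20 bases was present in 18 of 158 KO members (11.4%, 95% Wilson interval 7.33 to 17.3) and in 15 of 117 WT members (12.8%, 7.93 to 20.1), against 6.04% of all 225-base windows of the genome. The lower ends of both intervals were above the genome's share. The genome windows also cover annotated L1 and LTR elements, gene bodies and chromosome 15, which the choice of members left out. The intervals treat neighbouring peaks as independent. The motif GAGAGAGA, searched on both strands, was in 3.16% of KO and 6.84% of WT windows against 3.92% of genome windows, and CACACACA in 7.59% and 9.40% against 6.77%, with the genome's share inside the interval each time. Members were richer in G and C than the genome, with a median of 45% (KO) and 46.6% (WT) against 41.8%.

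The ChIRP probes themselves matched the members only in short stretches. Among 16 probes of 20 bases, the longest exact match was 12 bases, in a KO member at chr8:91901334-91901501 near the homeobox gene *Irx3*, and 11 bases in a WT member at chr17:17017506-17017702 near *Zfp960*. These genes were chosen after their values were seen. The matched bases are in capitals, which shows how much of a probe lay outside the match.
Meg3-10, for the KO member near Irx3: gtgGAACCTGAGCACaacag
Meg3-8, for the WT member near Zfp960: caatctCATGAGTGAGTccg

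The median longest match to any probe was 8 bases in each list.

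Distances to the TSS given in the lists were alike in the middle and differed at the far end. The median was 43661 bp in the KO list, with quartiles of 12528 and 153381 bp, and 44267 bp in the WT list, with quartiles of 14543 and 104813 bp. The KO members reached 1619733 bp and the WT members 545750 bp. Beyond 500 kb there were 11 KO members and 2 WT members, and of the 11, 6 were near *Efnb2* and 3 lay side by side near *Cdh20*. The share over 100 kb was 52 of 158 in the KO list (32.9%, 26.1 to 40.6) and 32 of 117 in the WT list (27.4%, 20.1 to 36.1), a difference of 5.56 percentage points that did not pass Fisher's exact test (two-sided, adjusted p = 0.711 over 6 shares). Without the crowded regions of chromosome 13 (66 to 69 Mb) and chromosome 12 (around *Mir6388*) described below, the shares were 22.8% and 6.85%, and that difference passed Fisher's exact test (adjusted p = 0.00985). The crowded regions were set where many members of these lists lie, and leaving them out took a larger share of the WT list. All these tests compare the peaks of 2 lists and not cultures, and neighbouring peaks are not independent.

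Gene-body peaks outside L1 and LTR lay closer to a TSS, with medians of 7238 bp (KO, n = 116) and 9890 bp (WT, n = 126). The classes partly set this order, since a gene-body peak lies inside a gene of the deposited annotation and a member lies outside all of them. Members upstream of their TSS numbered 87 of 158 in the KO list (55.1%) and 53 of 117 in the WT list (45.3%), a difference of 9.76 points (Fisher's exact test, adjusted p = 0.344). Within 5 kb of the TSS, 14 of 17 KO and 8 of 8 WT members stood upstream, which the choice of intergenic peaks favours, since a peak just downstream of a TSS mostly lies in the gene. From 100 to 500 kb most stood downstream, 28 of 41 (KO) and 25 of 30 (WT).

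**Figure D1:**
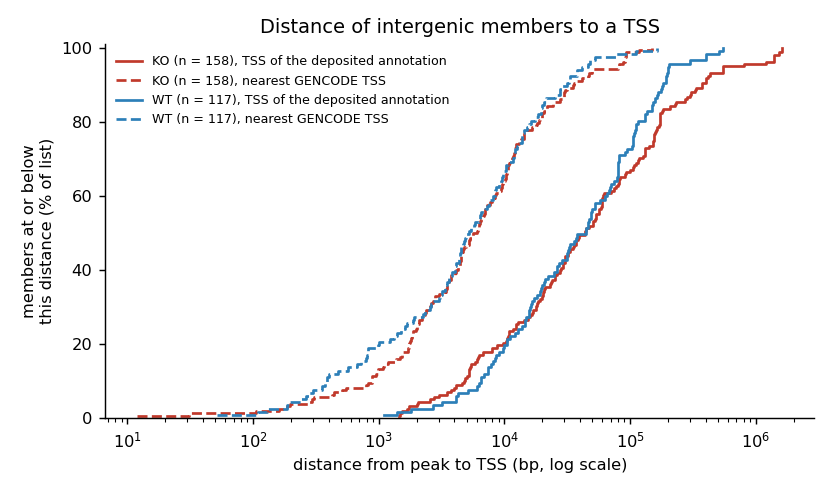
Cumulative share of members (y axis, % of the list) by distance to a TSS (x axis, bp, log scale), for 158 KO (red) and 117 WT (blue) members, with solid lines for the TSS of the deposited annotation and dashed lines for the nearest TSS in GENCODE. The solid lines cross 50% near 44 kb in both lists and part above 100 kb, and the dashed lines lie to the left, with medians of 5854 bp (KO) and 5214 bp (WT).

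The members nearest to a TSS were all upstream. In the KO list they were 1451 bp from *Rcor2*, which encodes a corepressor of REST, 1488 bp from *Rtbdn*, which encodes retbindin, and 1519 bp from *Gm11127*. In the WT list they were 1103 bp from *Tpm4*, which encodes a tropomyosin, a protein that winds along actin filaments, 1404 bp from *Ltbp3*, which encodes a latent TGF-β binding protein, and 1801 bp from the zinc-finger gene *Zfp934*. The 3 farthest KO members were all assigned to *Efnb2*, the gene of the membrane ligand ephrin-B2, at 1530195, 1612943 and 1619733 bp. The 3 farthest WT members were all assigned to *Mir6388*, a microRNA gene, at 401532, 510129 and 545750 bp. The widest members were a KO peak of 898 bp near *Zfp808* and a WT peak of 728 bp near *Abt1*, an activator of basal transcription. The median width was 234 bp in the KO list and 215 bp in the WT list.

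By chromosome the members were far from even. Chromosome 13 held 28 KO members (17.7%, 12.6 to 24.4) and 45 WT members (38.5%, 30.1 to 47.5), although it makes up 4.57% of the length of chromosomes 1 to 19 and X. The intervals of the lists did not overlap there. All peaks outside chromosome 15 showed the same order on chromosome 13, with 6.73% of KO and 13.3% of WT peaks. On chromosome 8 the order was the other way, with 25 KO members (15.8%) and 8 WT members (6.84%), and all peaks had that order too, with 7.36% and 4.11%. Chromosome 17 held 23 and 18, chromosome 12 held 15 and 12, and chromosome 19 held 9 and 11. Chromosome X held 9 KO members and 1 WT member, against 2.78% of all KO and 1.72% of all WT peaks, and chromosome 1 held 10 and 1. No member lay on chromosomes 4 and 18. Chromosome 1 carried 24.7% of all KO peaks and 24.1% of all WT peaks outside chromosome 15, so peaks in L1, LTR or genes made up nearly all of its peaks. Differences between chromosomes are a description without a test.

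**Figure D2:**
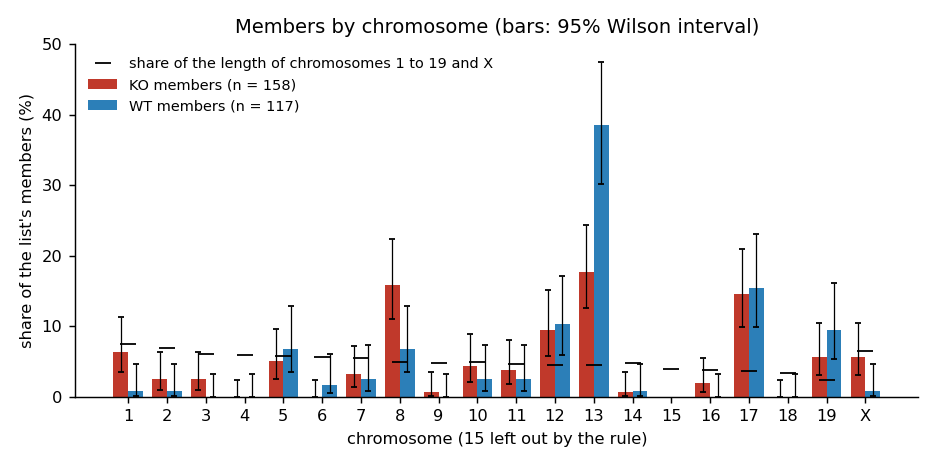
Share of each list's members on each chromosome (y axis, %), with bars for 158 KO (red) and 117 WT (blue) members, whiskers for 95% Wilson intervals and black dashes for the chromosome's share of the length of chromosomes 1 to 19 and X. The highest bars are on chromosome 13, at 38.5% of WT and 17.7% of KO members, and both lists stand above the dash on chromosomes 8, 12, 13, 17 and 19.

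A few stretches held many of the members. On chromosome 13 between 66 and 69 Mb lay 22 KO members (13.9%) and 34 WT members (29.1%), and at 62 to 63 Mb a further 5 and 6, mostly near the zinc-finger genes *Zfp808*, *Zfp934* and *Zfp935*, the last of which was chosen after its values were seen. At the far end of chromosome 12, around *Mir6388* in the IgH region, lay 9 and 10, besides the 5 near *Adam6a*. On chromosome 17 between 35 and 39 Mb, which holds class I histocompatibility, olfactory receptor and *Esp* genes, lay 11 and 8. On chromosome 8 between 70 and 73 Mb lay 8 KO and 2 WT members.

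The lists named 142 nearest genes for the members. Of these, 73 were named by KO members only, 46 by WT members only and 23 by both, which is 24.0% of the genes of the KO members and 33.3% of those of the WT members. Over all peaks outside chromosome 15, 268 genes were named by both lists, which is 29.4% of the KO genes and 38.1% of the WT genes. These shares are not a like measure. There any peak of the other list could name the gene, and among the members only a member could. A single member was assigned to 102 genes, and 1 KO member had no gene name. The 10 genes with the most members together held 98 of the 275. They were *Uqcrb* with 20 members (8 KO, 12 WT), *2410141K09Rik* with 19 (8 and 11), *Mir6388* with 18 (8 and 10), *BC048507* with 8 (3 and 5), *Efnb2* with 6 (all KO), *Esp34* with 6 (4 and 2), *Zfp808* with 6 (4 and 2), *Adam6a* with 5 (4 and 1), *Cyp3a41b* with 5 (4 and 1) and the non-coding RNA *Urml* with 5 (2 and 3).

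Most of these genes were landmarks at a distance and not hosts. *Uqcrb* encodes a subunit of respiratory complex III, yet its 20 members stood 78156 to 231406 bp from its TSS, in 153.7 kb where GENCODE annotates 9 genes, 7 of them pseudogenes. One of these 9 is *Zfp640*, a zinc-finger pseudogene that 3 KO members overlapped. The 19 members of *2410141K09Rik* ran over 358.0 kb of the neighbouring stretch of the same cluster, from 1734 to 201310 bp from the TSS. *BC048507* and *Urml* followed further along, with members up to 172041 and 177477 bp away. *Mir6388* lies in the IgH region, where its 18 members spread over 677.3 kb with 36 annotated immunoglobulin segments. *Adam6a*, a member of the ADAM metallopeptidase family, also lies beside the IgH genes, and its span of 92.8 kb held 12 immunoglobulin segments.

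*Efnb2* was the one gene among these 10 without a WT member. Its KO members lay at chr8:7040804-7278915, a span of 238.1 kb with 3 GENCODE genes, all pseudogenes. That span held 10 KO peaks of any kind and 0 WT peaks, and 4 of the KO peaks were centred in L1. *Cyp3a41b* had 4 KO members and 1 WT member within 15.9 kb, 44726 to 60363 bp upstream. *Esp34* had 4 KO and 2 WT members within 66 kb on both sides of the gene.

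**Figure D3:**
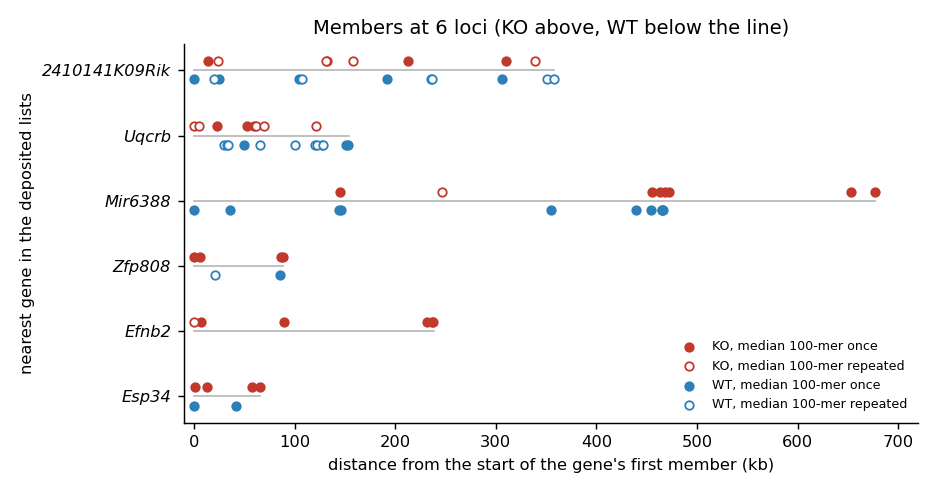
Positions of the members assigned to 6 genes, as distance from the start of the first member (x axis, kb), with KO members (red) above and WT members (blue) below each line, filled where the median 100-mer of the peak occurs once in the genome and open where it is repeated. KO and WT members interleave at *2410141K09Rik*, *Uqcrb* and *Mir6388*, *Efnb2* has 6 KO and 0 WT members, and the open symbols are mostly at *Uqcrb* (13 of 20) and *2410141K09Rik* (10 of 19).

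Members were joined into clusters where the gap between neighbours, of either list, was at most 10 kb. This gave 51 clusters of 2 or more members, which held 130 members (47.3%), and 24 of the clusters held both lists. There were 6 clusters of 4 or more. The largest had 8 members, 4 KO and 4 WT, in 17.8 kb of the IgH region at chr12:115603942-115621691, and the median 31-mer of every one of them occurred once. The clusters assigned to *Uqcrb* had 6 members (4 KO, 2 WT) in 19.4 kb, 5 (1 and 4) in 9.2 kb and 4 (1 and 3) in 11.1 kb, and all 15 of these peaks had a repeated median 31-mer. *2410141K09Rik* had 1 cluster of 4 (2 and 2). The remaining cluster of 4 held KO members alone, at chr1:171540195-171556384 between *Itln1*, which encodes the lectin intelectin, and *Cd244*, a receptor of natural killer cells. The median 31-mer of each occurred once. A WT peak that is not a member lay between them, 1096 bp from the nearest KO member. With gaps of up to 1 kb there were 22 clusters, the largest of 4 members.

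Within a list, 60 of 158 KO members (38%, 30.8 to 45.7) and 31 of 117 WT members (26.5%, 19.3 to 35.1) had another member of the same list within 10 kb. The difference of 11.5 points did not pass Fisher's exact test after adjustment (p = 0.0522, adjusted p = 0.313), and the longer KO list has more chance of near pairs. A member near another makes that one near too, so members are not independent units here, although the exact test counts them so. The exact test passed when only members with a single-copy median 100-mer were kept (33.9% against 12.2%, adjusted p = 0.00119), when the crowded regions of chromosomes 12 and 13 were left out (34.6% against 9.59%, adjusted p = 0.000488), without chromosome 13 (33.8% against 13.9%, adjusted p = 0.0156), and with chromosome 15 added (35.8% against 21.3%, adjusted p = 0.0295). The difference shrank to 4.83 points where no repeat was named (30.7% against 25.9%), to 3.07 with neighbours up to 1 kb and to 7.43 with peaks within 1 kb merged, none of which passed. With neighbours counted up to 100 kb the order turned, with 56.3% of KO and 59.8% of WT members. The crowded regions were set where many members of these lists lie. On chromosome 13 (66 to 69 Mb) they held 29.1% of WT and 13.9% of KO members. Leaving them out took a larger share of the WT list.

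No member overlapped a peak of the other list, and neither did any of the 2763 peaks, so neighbours were counted by their gap. The methods class peaks as unique to a genotype or shared, and do not state whether the deposited lists hold unique peaks alone. A WT peak of any kind lay within 10 kb of 57 KO members (36.1%, 29.0 to 43.8), against 27.7% of all 1441 KO peaks outside chromosome 15. A KO peak lay within 10 kb of 56 WT members (47.9%, 39 to 56.8), against 37.2% of all 1047 WT peaks. In both lists the members' share was above that of all peaks, and the value of all peaks was below the lower end of the members' interval. This is a description without a test. The intervals treat neighbouring peaks as independent, and the value of all peaks includes the members. Within 1 kb the shares were 10.1% and 12.8%, against 8.54% and 12.2% of all peaks, which lay inside the members' intervals. Within 100 kb they were 57% of KO and 81.2% of WT members, against 43.1% and 53.0%.

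Counting only members of the other list, 35 KO members (22.2%) and 35 WT members (29.9%) had one within 10 kb. The median gap from a WT member to the nearest KO peak was 13642 bp, and from a KO member to the nearest WT peak 55210 bp. Over all peaks of the lists the order was the same, with 86027 bp (WT) and 173149 bp (KO), and the KO list is the longer. The closest pairs after those at *Mir23a* and *Cyp3a41b* were at *Uqcrb* (209 bp), in the IgH region (231 bp), at *Esp34* (313 bp), at the olfactory receptor gene *Olfr239* (324 bp) and at *Morf4l1b* (517 bp), where 2 KO peaks and 1 WT peak all lay in an intron of *Lcor*, the gene of a nuclear receptor corepressor. The pair at *Uqcrb* was in the same kind of repeat, MurSatRep1, on both sides.

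**Figure D4:**
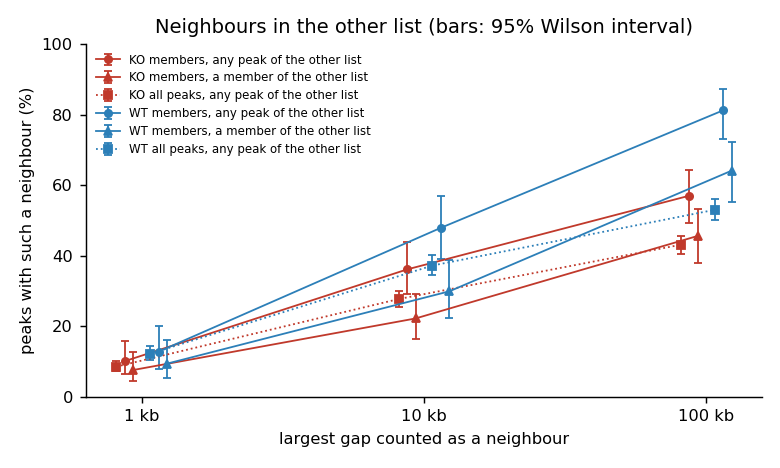
Share of peaks (y axis, %) with a neighbour within 1, 10 or 100 kb (x axis), for KO (red) and WT (blue) members with any peak of the other list (circles) or with a member of the other list (triangles), and for all peaks outside chromosome 15 (squares, dotted), with 95% Wilson intervals. The circles rise from 10.1% to 57% (KO) and from 12.8% to 81.2% (WT) and lie above the squares at 10 and 100 kb.

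The authors' annotation named no repeat at the centre of 127 KO members (80.4%) and 85 WT members (72.6%), and 3 of those KO members were in CpG islands, near *Mir23a*, *Uts2r* and *Six3os1*. The last 2 genes were chosen after their values were seen. SINEs, short retroposons copied with the help of L1, were at the centre of 21 KO members (13.3%, 8.86 to 19.5) and 16 WT members (13.7%, 8.60 to 21.1), a difference of -0.384 points (KO minus WT) that did not pass Fisher's exact test (adjusted p = 1.00). Of these, 11 KO and 7 WT members were in B1 elements (listed as Alu), 6 and 6 in B2 and 4 and 3 in B4. Simple repeats were at the centre of 2 KO members (1.27%, 0.348 to 4.50) and 8 WT members (6.84%, 3.51 to 12.9). MurSatRep1 was named for 2 and 4, and a satellite for 1 and 2. The single KO member in 7SLRNA, at chr12:69361193-69361462, overlapped *Rn7s2*, a gene of the RNA of the signal recognition particle.

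How often the DNA under a peak occurs in the genome was measured by the median copy number of its 100-base words (100-mers). It was above 1 in 31 of 158 KO members (19.6%, 14.2 to 26.5) and 27 of 117 WT members (23.1%, 16.4 to 31.5), a difference of -3.46 points (KO minus WT) that did not pass Fisher's exact test (adjusted p = 0.826). Over all peaks outside chromosome 15, which are mostly in L1 and LTR, the shares were 66.9% and 65.0%. Counted within 1 Mb alone, the median was still above 1 in 23 of the 31 KO and 24 of the 27 WT members. Further copies could lie elsewhere. For the 3 KO members near *Cdh20* the median was 3 within 1 Mb and 1901 to 2179 in the genome. For the KO member at chr13:66308597-66308977 it was 4 in both. With words of 31 bases, 80 KO members (50.6%) and 68 WT members (58.1%) were repeated. Reads from such DNA can be placed at any of the copies, and the part of this in the positions of the peaks was not tested.

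Members were repeated more often than gene-body peaks outside L1 and LTR. In the KO list the share was 19.6% against 11 of 116 (9.48%, 5.38 to 16.2), and Fisher's exact test passed (adjusted p = 0.0268). In the WT list it was 23.1% against 12 of 126 (9.52%, 5.53 to 15.9), which also passed the exact test (adjusted p = 0.00982). With 31-mers the gap was wider by the same exact test, at 50.6% against 19% (KO, adjusted p = 7.74e-08) and 58.1% against 22.2% (WT, adjusted p = 2.28e-08). For 100-mers neither difference passed the exact test without chromosome 13, which was left out after the data were seen: the shares were then 16.9% against 8.77% in the KO list (adjusted p = 0.172) and 8.33% against 8.33% in the WT list (adjusted p = 1.00).

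**Figure D5:**
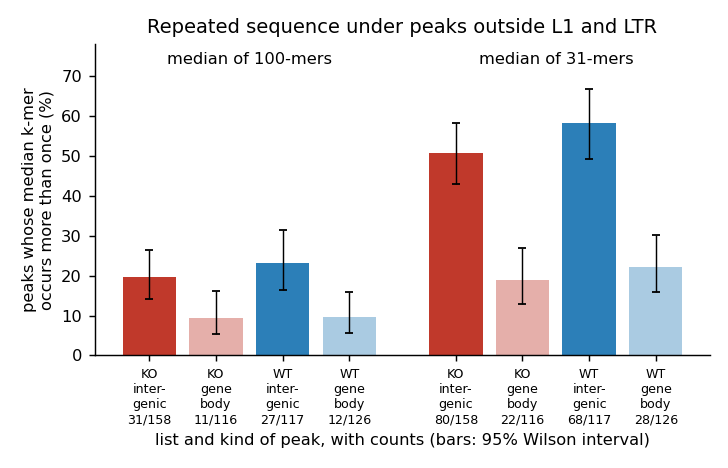
Share of peaks whose median 100-mer (left) or 31-mer (right) occurs more than once in the genome (y axis, %), for intergenic members (dark) and gene-body peaks outside L1 and LTR (light) of the KO (red) and WT (blue) lists, with counts under each bar and whiskers for 95% Wilson intervals. The members stand higher in each pair, at 19.6% against 9.48% (KO) and 23.1% against 9.52% (WT) for 100-mers.

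Several members carried L1 sequence although no repeat was named for them. At least 50% of the 31-mers of 6 KO members and 1 WT member also lay under peaks of these lists that are annotated as L1, and in each of the 7 the median 100-mer had from 1724 to 2179 copies. They were 3 KO members side by side near the cadherin gene *Cdh20* (1901 to 2179 copies), and 1 each near *Pdc* (1884), *Mir124-2hg* (1724) and *Snord14c* (2089) in the KO list and near *Sh3bp4* (2099) in the WT list. These genes were chosen after their values were seen. Without these 7, which were left out after the data were seen, the KO members were repeated in 16.4% of cases against 9.48% of gene-body peaks, which did not pass the exact test (adjusted p = 0.107), and the WT members in 22.4% against 9.52%, which did (adjusted p = 0.0152). The other repeated members had at most 22 copies of the median 100-mer, except 1 WT member in a (CAGAG)n repeat with 11774.

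Members were seldom alike among themselves. Only 5 KO members (3.16%) and 12 WT members (10.3%) aligned to any other member with at least 80% identity over at least 80% of their own length. There were 13 KO-WT pairs in which either peak was covered to that extent, and in 10 of them both peaks lay on chromosome 13. The most alike of these 10 is shown, to let the repeated sequence of chromosome 13 be seen in both lists. Both peaks were assigned to *Uqcrb* although they lay apart, the KO peak in an intron of *Zfp640* and the WT peak in an intron of the pseudogene *Gm7896*, and they were 98.9% identical where they aligned. Capitals mark their longest shared stretch, of 92 bases, and of the KO peak 300 bases around that stretch are given.
Uqcrb KO, chr13:66673638-66673937: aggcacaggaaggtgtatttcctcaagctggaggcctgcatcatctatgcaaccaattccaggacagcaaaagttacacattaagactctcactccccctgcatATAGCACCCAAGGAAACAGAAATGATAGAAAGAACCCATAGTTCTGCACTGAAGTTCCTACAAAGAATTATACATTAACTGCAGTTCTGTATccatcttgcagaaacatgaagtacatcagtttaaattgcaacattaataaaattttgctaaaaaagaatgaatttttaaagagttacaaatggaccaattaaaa
Uqcrb WT, chr13:66795354-66795532: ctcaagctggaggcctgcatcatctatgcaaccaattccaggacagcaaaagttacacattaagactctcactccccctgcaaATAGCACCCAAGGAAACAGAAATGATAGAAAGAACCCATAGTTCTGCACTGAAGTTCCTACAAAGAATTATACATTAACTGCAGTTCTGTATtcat

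The identical stretch stood at both places in the same direction. The WT peak was centred in MurSatRep1, and its 31-mers had a median of 7 copies.

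A member that is intergenic in the deposited annotation need not be so in a denser one. In GENCODE M21, which holds more non-coding genes, pseudogenes and immunoglobulin segments, 50 of 158 KO members (31.6%, 24.9 to 39.3) and 40 of 117 WT members (34.2%, 26.2 to 43.2) overlapped a gene. This comparison was added after the data were seen. The overlap was with an exon in 16 KO and 17 WT members and only with introns in 34 and 23. Each member was counted under a single kind of gene, also where it overlapped genes of several kinds. By that count, 17 KO and 11 WT members were in a protein-coding gene, 20 and 18 in a long non-coding gene, 10 and 9 in a pseudogene and 2 and 2 in an immunoglobulin segment. Overlaps with pseudogenes can thus be more than counted. The nearest GENCODE TSS was at a median of 5854 bp (KO) and 5214 bp (WT), and it was within 1000 bp of 21 KO and 23 WT members. Only 2 KO and 2 WT members were over 100 kb from one.

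The *Efnb2* members show what this changes, since the farthest of them, 1619733 bp from *Efnb2*, lay 884 bp from the TSS of the pseudogene *Gm44911* and overlapped its exon. Likewise the WT member 401532 bp from *Mir6388* overlapped an exon of *Ighv8-8*. All 4 members in immunoglobulin segments were exonic, the KO ones in *Ighv5-6* and *Ighv1-74* and the WT ones in *Ighv8-8* and *Ighv1-67*. At the *Neat1* locus a single KO member stood 2728 bp upstream of that non-coding gene, inside an intron of *Frmd8os*. That locus was chosen after its values were seen.

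Gene families were counted by symbol. Genes of the Zfp type were nearest to 8 KO (5.06%) and 9 WT members (7.69%), against 2.29% and 1.72% of all peaks outside chromosome 15. Olfactory receptor genes were nearest to 6 (3.8%) and 4 (3.42%), against 1.80% and 2.10%, and vomeronasal receptor genes to 6 (3.8%) and 3 (2.56%), against 2.15% and 1.91%. For both receptor families the value of all peaks lay inside the members' interval in each list. Genes with Gm names were nearest to 10 KO (6.33%) and 12 WT members (10.3%), against 9.72% and 10.1%, and genes with Rik names to 17 and 17 (10.8% and 14.5%), against 11% and 13.4%. Zinc-finger, olfactory and vomeronasal genes stand in tandem arrays that arose by duplication. MicroRNA genes were nearest to 17 (10.8%) and 13 (11.1%), against 4.44% and 5.25%, and 18 of these 30 were at *Mir6388*. Of the 17 members near Zfp genes, 13 had a repeated median 31-mer and 2 a repeated median 100-mer. Over all members the shares were 50.6% (KO) and 58.1% (WT) for 31-mers, and 19.6% and 23.1% for 100-mers.

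None of the genes in the lists counted here was the nearest gene of a member. This held for 10 genes of chondroitin, heparan and dermatan sulfate synthesis and 9 phospholipase genes, both taken from the paper. It also held for 14 genes of TGF-β signalling, 6 genes of the *Dlk1*-*Dio3* region with *Meg3* itself, 6 actin genes, 5 PRC2 genes and 10 genes expressed in fibroblasts. Over all peaks outside chromosome 15, a peak of either list was assigned to *Hs3st3b1*, *Plcl1*, *Pld5*, *Jarid2* and *Col3a1* of these genes, and none of those peaks was a member. *Hs3st3b1* had a peak in both lists, *Plcl1* and *Pld5* in the KO list only, and *Jarid2* and *Col3a1* in the WT list only. Members made up 11% of KO and 11.2% of WT peaks. With so few listed genes reached by any peak, their absence among the members does not set the members apart.

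As a share of their list, the members were at nearly the same level in both genotypes. They made up 158 of 1441 KO peaks outside chromosome 15 (11%, 9.45 to 12.7) and 117 of 1047 WT peaks (11.2%, 9.41 to 13.2), a difference of -0.210 points (KO minus WT; Fisher's exact test, two-sided, adjusted p = 1.00). Of the 6 shares compared between the lists by Fisher's exact test, 0 passed at an adjusted p of 0.05, and 0 passed at an unadjusted p of 0.05.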

How the data were processed

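The authors aligned *Meg3* ChIRP-seq reads to GRCm38 (mm10) with BWA, merged the libraries of a genotype, called peaks with MACS2 against input and annotated them with HOMER. Trimmomatic, Picard and deepTools are also named in the submitters' processing notes, and no versions are given in the sources used here. The score deposited by the authors is 1 for every peak. The authors classed peaks as unique to a genotype or shared, and whether the deposited lists hold unique peaks alone is not stated. Distances and positions are given in bp, with no normalization. Depth is unknown, so intervals cover the counting of peaks only.

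The members, gene lists and naming rule were chosen with earlier results of these data known. Genes named are the 10 with the most members, those of the 10 closest KO-WT member pairs, of the 3 nearest to and 3 farthest from a TSS and the widest member in each list, and of clusters of 4 or more. Each share has a 95% Wilson interval, and pairs of shares were set against each other with Fisher's exact test (two-sided), with p-values adjusted by Benjamini-Hochberg over 6 shares, or over 2 for gene-body peaks. Gene-body peaks are those in exons, introns, untranslated regions, transcript ends and non-coding genes under the same limits. Copy numbers of all words of 31 and 100 bases under a peak came from both strands of GRCm38, autosomes and X, and sequences were read from the RefSeq copy of that build. Members were aligned with BLAST+ 2.17.0. GENCODE M21 on GRCm38 gave a second annotation. The alternatives were other distances, gaps and word lengths, merging peaks within 1 kb, and leaving out regions, chromosomes or repeats. Tested on simulated data, the counting found 100 of 100 planted copy numbers, and gaps differed from a direct count in 0 of 580. Python 3.11.15, scipy 1.17.1 and numba 0.67.0 were used.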

Additional observations from a re-analysis of the deposited data

How the results depend on the processing

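Differences between the lists are given as KO minus WT in percentage points, and compare lists, not cultures. No paired analysis was possible because each genotype has 1 merged list. The share of a list that is intergenic outside L1 and LTR turned from -0.210 to 2.69 without the 3 densest chromosomes (13, 17 and 19), 0.695 with no repeat named, 1.57 without the crowded regions of chromosomes 12 and 13, 2.03 with the median 100-mer once and 1.74 without chromosome 13, and none of these passed. The SINE difference turned from -0.384 to 8.33, 2.91 (with chromosome 15), 0.475, 0.577 and 0.0227 (without members that carry L1 sequence), in the order densest chromosomes, chromosome 15, crowded regions, chromosome 13 and L1 sequence, and none passed. The repeated 100-mer difference turned from -3.46 to 7.76, 0.433, 4.21 and 8.59 without the densest chromosomes, with chromosome 15, without the crowded regions and without chromosome 13, and none passed. The upstream difference turned from 9.76 to -0.0216 without the crowded regions and was 19.8 without the densest chromosomes (exact p = 0.0392, adjusted p = 0.117). The difference over 100 kb rose from 5.56 to 16.0 and passed without the crowded regions. The difference in members within 10 kb of another rose from 11.5 to 14.5 with chromosome 15, 25.1 without the crowded regions, 21.6 with the median 100-mer once and 20 without chromosome 13, each past the threshold, fell to 4.83 with no repeat named, 3.07 at 1 kb and 7.43 with peaks merged, and turned to -3.50 at 100 kb. Against gene-body peaks, the repeated 100-mer difference fell below the threshold at 8.15 (KO) and 0 (WT) without chromosome 13 and at 6.96 (KO) without members that carry L1 sequence. The cause was not tested for any of these. Leaving out chromosome 13 and members that carry L1 sequence were chosen after seeing the data. The crowded regions were set where many members of these lists lie, so leaving them out is not independent of the lists. Neighbours in the other list went from 36.1% to 10.1% at 1 kb, 57% at 100 kb and 22.2% with only members counted (KO), and from 47.9% to 12.8%, 81.2% and 29.9% (WT), and clusters from 51 to 22 with gaps of up to 1 kb, as the gap itself sets these counts. In all, 42 values kept their direction and side of the threshold, or for counts stayed within 1.5 times the main count. Of the others, 16 turned direction, 5 rose past the threshold, 3 fell below it and 7 cluster or neighbour values moved. With no repeat named no SINE share exists, and with the median 100-mer once no repeated share.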
